A study of Mus musculus with 3 samples.

Results

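The 10 genes described here encode ubiquitin enzymes and partners tied to the last steps of red-cell maturation, Trim58, Trim10, Ube2o, Ube2h, Ube2l6, Fbxo7, Fbxo9, Rnf123, Mkrn1 and Riok3. They were chosen by symbol, and all 10 of 10 were found among the 15058 genes of the series. The choice was not made on their measured values in a contrast, but it was made with earlier results of these data known. The name of the group describes 9 of them by role. Riok3 is a RIO-family kinase and not a ubiquitin enzyme.

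RNA was sequenced from erythroblasts, the nucleated precursors of red cells, sorted from mouse peripheral blood at embryonic day E10.5 by 2 surface proteins, the transferrin receptor CD71 and the red-cell antigen Ter119. The Drosha-null library came from CD71-positive Ter119-high cells of conditional knockout (cKO) embryos, genotype Drosha fl/fl;cdh5-cre+, in which Drosha is labelled null. The Ter119-low library came from cells of that same genotype that were CD71-positive but Ter119-low, in which Drosha is labelled as abundant as wild type. The control library came from CD71-positive Ter119-high cells of embryos that were Drosha fl/fl or Drosha fl/+, a mix of both floxed genotypes in which Drosha is labelled WT. Cre is driven by Cdh5, a gene of endothelium and not of erythroblasts. Cells of 5 embryos were pooled, and each group has 1 library, so the spread between embryos is unknown and no test across conditions exists. The Ter119-low library differs from the control in genotype and in sort gate together, and these cannot be told apart. From the Drosha-null library it differs in sort gate and in labelled Drosha status together, which cannot be told apart either. In pools of cells, fewer cells of a type and less RNA per cell cannot be told apart either.

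Ubiquitin is passed from an activating enzyme (E1) to a conjugating enzyme (E2) and from there, with the help of a ligase (E3), to a target protein, which is often then degraded by the proteasome. RING and TRIM proteins are E3 ligases. F-box proteins bring targets to the SCF ligase, which is switched on by the ubiquitin-like protein NEDD8. Erythroblasts remodel their proteome as they mature, removing organelles, ribosomes and nuclear proteins while keeping hemoglobin, and in mammals definitive erythroblasts expel their nucleus. Drosha cuts primary microRNA transcripts in the nucleus, and a mature microRNA pairs with its target messages mainly through its seed, bases 2 to 8.

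Drosha had 122 counts in the Drosha-null, 244 in the Ter119-low and 324 in the control library, which gave log2 ratios against the control of -1.81 (95% counting interval -2.13 to -1.51) in the Drosha-null and -0.49 (-0.74 to -0.25) in the Ter119-low library. Its RNA was thus below the control also in the library labelled as abundant as wild type. Total counts were 9325814, 9418474 and 9497425 in the Drosha-null, Ter119-low and control library, of which ribosomal RNA took 27.9% to 28.7%. All 11 of 11 erythroblast markers were detected in every library, with summed levels of 141324, 241833 and 278619 CPM, which are counts scaled by library size. Markers of other cells were far lower in sum, with endothelial markers at 250 counts in the Drosha-null, 99 in the Ter119-low and 88 in the control library, cardiac markers at 26.2, 6.06 and 8.81 CPM and mesenchymal markers at 9.69, 6.85 and 7.74 CPM. Macrophage markers summed to 5.47, 2.69 and 5.83 CPM with C1qa at 0 in all 3 libraries. Megakaryocyte markers summed to 15.9, 13.9 and 12.0 CPM and endoderm markers to 0.359, 0.337 and 0 CPM. Afp and Alb were at 0 in all 3 libraries. Against the control, 5 of 11 erythroblast markers were at least 2-fold lower in the Drosha-null library with intervals excluding 1, and 0 higher. By that rule 2 of 7 endothelial, 2 of 3 cardiac, 1 of 3 megakaryocyte and 1 of 3 mesenchymal markers were higher and 0 lower. Neither of 2 macrophage markers passed it. Of all genes 7.79% were lower and 12.4% higher.

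The sequences shown first are those of the genes the results turn on. The promoter windows of Trim58 and Trim10, the 2 members called lower in the Drosha-null library, run from 250 bases before to 50 bases after the start site and are taken from RefSeq on GRCm38.p6. Trim58 lies at chr11:58640465-58652404 (plus strand, GRCm38, 6 exons) and Trim10 at chr17:36869574-36877833 (plus strand, 7 exons), per GENCODE M21. Capitals mark a word bound by GATA factors, the main erythroid transcription factor family. The words searched on both strands were AGATAA and its variant AGATAG, followed by TGATAA and its variant TGATAG, and 18.0% of 10251 promoters of tested genes held at least 1. Windows were found for 8 of the 10 members (12 windows in all).
Trim58 promoter, chr11:58640215-58640514, plus strand: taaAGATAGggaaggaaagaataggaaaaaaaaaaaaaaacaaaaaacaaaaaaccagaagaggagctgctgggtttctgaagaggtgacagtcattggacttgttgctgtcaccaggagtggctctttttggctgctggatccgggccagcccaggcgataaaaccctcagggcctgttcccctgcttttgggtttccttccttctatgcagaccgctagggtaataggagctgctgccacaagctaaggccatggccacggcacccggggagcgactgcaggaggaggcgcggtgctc
Trim10 promoter, chr17:36869324-36869623, plus strand: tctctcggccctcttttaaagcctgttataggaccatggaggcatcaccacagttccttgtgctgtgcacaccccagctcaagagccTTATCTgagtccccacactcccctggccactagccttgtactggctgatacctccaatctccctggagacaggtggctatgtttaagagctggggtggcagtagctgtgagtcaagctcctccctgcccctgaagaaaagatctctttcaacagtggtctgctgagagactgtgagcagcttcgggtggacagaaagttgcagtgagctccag
In Trim58 the word lies 247 bases and in Trim10, where it reads on the other strand, 163 bases before the start site. A further GATA word stood 204 bases before 1 of the 2 Ube2h start sites, and none was found in the windows of Ube2l6, Fbxo7, Fbxo9, Rnf123 and Mkrn1. Words bound by Krüppel-like factors (CCACACCC and CCCCACCC, both strands) were found in the Ube2l6 window alone, 50 bases before the start site, against 15.1% of all promoters. The base composition of the Trim58 and Trim10 windows was 52.3% and 54.0% GC, below the median of 61.3% over all promoters. These are matches of letters and not binding sites.

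Because Drosha makes microRNAs, the annotated 3' UTRs of the members were searched for the 7-base complement of the seeds of 6 microRNAs known from blood cells. The mature sequences, from RefSeq on GRCm38.p6, are shown with the seed in capitals.
miR-451a: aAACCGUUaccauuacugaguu
miR-144-3p: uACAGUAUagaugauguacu
let-7a-5p: uGAGGUAGuagguuguauaguu
miR-16-5p: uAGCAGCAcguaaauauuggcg
miR-17-5p: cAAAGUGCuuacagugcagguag
miR-92a-3p: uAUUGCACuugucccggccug
No member held a site for miR-451a, which is made in erythroid cells without Dicer, and 2.08% of 9752 tested genes with an annotated 3' UTR did. The 3' UTRs of Trim58, Trim10, Ube2o, Fbxo9, Ube2l6 and Rnf123 held none of the 6 sites. Those of Trim58, Trim10 and Rnf123 are 731, 470 and 306 bases long, shorter than the median of 1260 over tested genes. The sites are shown for Mkrn1 (chr6:39397804-39420462, minus strand, 8 exons) and Ube2h (chr6:30211289-30304539, minus strand, 7 exons), 2 of the members that hold any, with the seed match in capitals and each read on the strand of the gene in GRCm38.
Mkrn1 site 1 for miR-17-5p, chr6:39398247-39398276: acagtctagccttttcagtcagGCACTTTt
Mkrn1 site 2 for miR-17-5p, chr6:39397837-39397866: tgcagctgcccttttgtaagaaGCACTTTt
Ube2h site for miR-144-3p, chr6:30213017-30213046: taaaaaaaatgtatttttttcaATACTGTa
Ube2h site for miR-16-5p, chr6:30212463-30212492: aggggtggcagtaagtcacagcTGCTGCTg
A second miR-16-5p match in Ube2h overlaps the one shown. Over all tested genes with a 3' UTR, 15.6% held a miR-17-5p site, 14.4% a miR-144-3p site and 25.8% a miR-16-5p site. Fbxo7 also has 2 miR-16-5p matches, but in a 3' UTR of 3765 bases that the deposited gene length of 1886 bases does not cover. Riok3 has 1 let-7, 2 miR-16-5p and 1 miR-92a-3p match. A match is a description and not a shown target.

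Levels can be compared between genes only per length, in FPKM (fragments scaled by gene length and library size). Ube2l6, the E2 of the ubiquitin-like modifier ISG15, had the highest level of the 10 genes in every library and lay at the 97.7th, 98.1st and 98.1st percentile of all genes in the Drosha-null, Ter119-low and control library. It had 118.25, 138.46 and 134.66 FPKM in these libraries and made up 45.9%, 43.5% and 45.7% of the summed FPKM of the 10 genes. Trim10, a TRIM E3 reported to be needed for terminal differentiation of mouse erythroleukemia cells, was second in every library at 45.02, 77.26 and 67.59 FPKM. Its percentile among all genes was 93.2 in the Drosha-null, 96.6 in the Ter119-low and 96.1 in the control library. The exact counting intervals of Ube2l6 and Trim10 overlapped neither each other nor those of any other member.

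Below them, the order was less sharp. In the control library Ube2h (17.19 FPKM), Riok3 (17.16 FPKM) and Rnf123 (16.58 FPKM) had overlapping intervals, and Mkrn1 (11.61 FPKM), Fbxo7 (10.87 FPKM) and Fbxo9 (10.39 FPKM) formed the next run whose intervals overlapped. Trim58 (4.65 FPKM, interval 3.76 to 5.69) and Ube2o (3.81 FPKM, interval 3.28 to 4.40) stood last and overlapped. In the Drosha-null library Rnf123, at 12.0 FPKM, stood at rank 6 beside Fbxo9 (13.06 FPKM) and Mkrn1 (11.84 FPKM), and in the Ter119-low library at rank 4 with 18.51 FPKM. Trim58 was last in both cKO libraries, at 2.17 FPKM (interval 1.57 to 2.92) in the Drosha-null and 2.30 FPKM (1.68 to 3.07) in the Ter119-low library, and there its interval lay below that of Ube2o, which had 4.79 FPKM (4.19 to 5.45) and 4.78 FPKM (4.18 to 5.44). The highest member exceeded the lowest 54.5-fold in the Drosha-null, 60.2-fold in the Ter119-low and 35.3-fold in the control library.

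**Figure D1:**
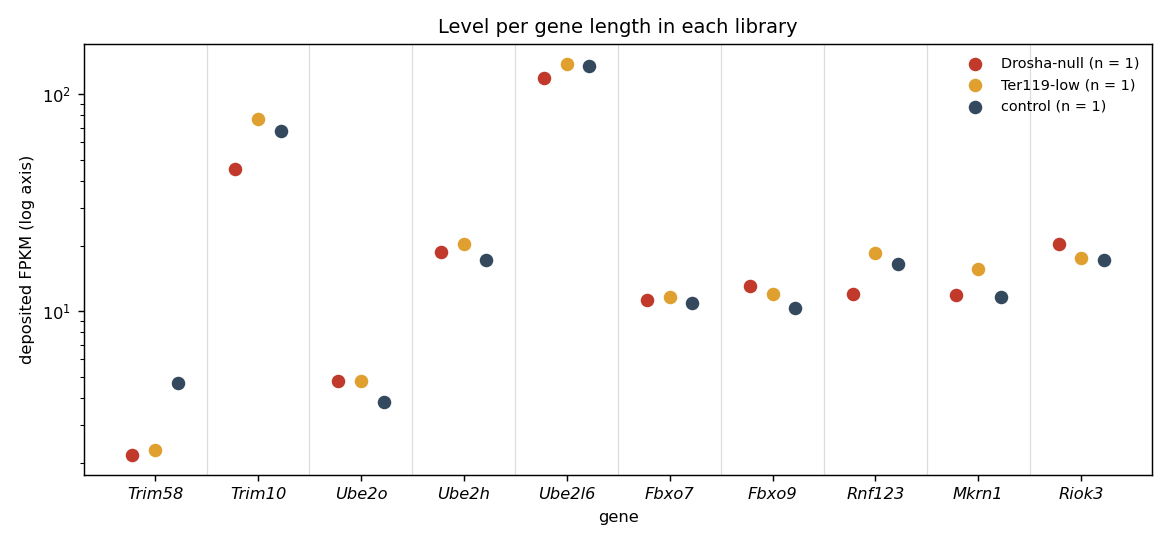
Deposited FPKM (log axis) of the 10 genes in the Drosha-null, Ter119-low and control library, 1 point a library (n = 1 each). Ube2l6 and Trim10 are highest in all 3 libraries, and Trim58 stands at 2.17 and 2.30 FPKM in the cKO libraries, against 4.65 FPKM in the control.

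Trim58, Trim10 and Rnf123 had the lowest log2 ratios of the 10 genes in the Drosha-null library against the control, at -1.53, -1.02 and -0.90. Ratios between libraries were computed from counts scaled by TMM, a scaling that assumes most genes to be unchanged. A gene was called when it differed at least 2-fold and its 95% counting interval excluded a ratio of 1. By that rule 2 of the 10 genes, Trim58 and Trim10, were called lower in the Drosha-null library and 0 were called higher. Over all 10769 genes tested 7.79% were called lower and 12.4% higher. All 10 log2 ratios were below 0, as were 51.1% of those of all genes, and 8 of 10 intervals lay below a ratio of 1, as did 30.8% of all genes. None lay above 1, where 29.1% of all genes did. The median log2 ratio of the 10 genes was -0.40, against -0.02 over all genes.

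That direction depends on the scaling for most of the genes. Scaled by total counts, the median of all genes moved by 0.45 to 0.43, the median of the 10 genes was 0.04, and 4 of them (Trim58, Trim10, Ube2l6 and Rnf123) remained below 0. The calls over all genes then became 2502 higher and 294 lower, against 1333 higher and 839 lower with TMM. Relative to the median of all genes the 10 stood at -0.38 with TMM and -0.39 with total counts. A scaling moves every ratio by one amount, so this likeness was fixed in advance and says nothing about the direction. Globins took 17.1% of the counts of the Drosha-null, 23.1% of the Ter119-low and 25.0% of the control library. With total counts less ribosomal RNA and globins, 8 of 10 were below 0 and their median was -0.21.

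**Figure D2:**
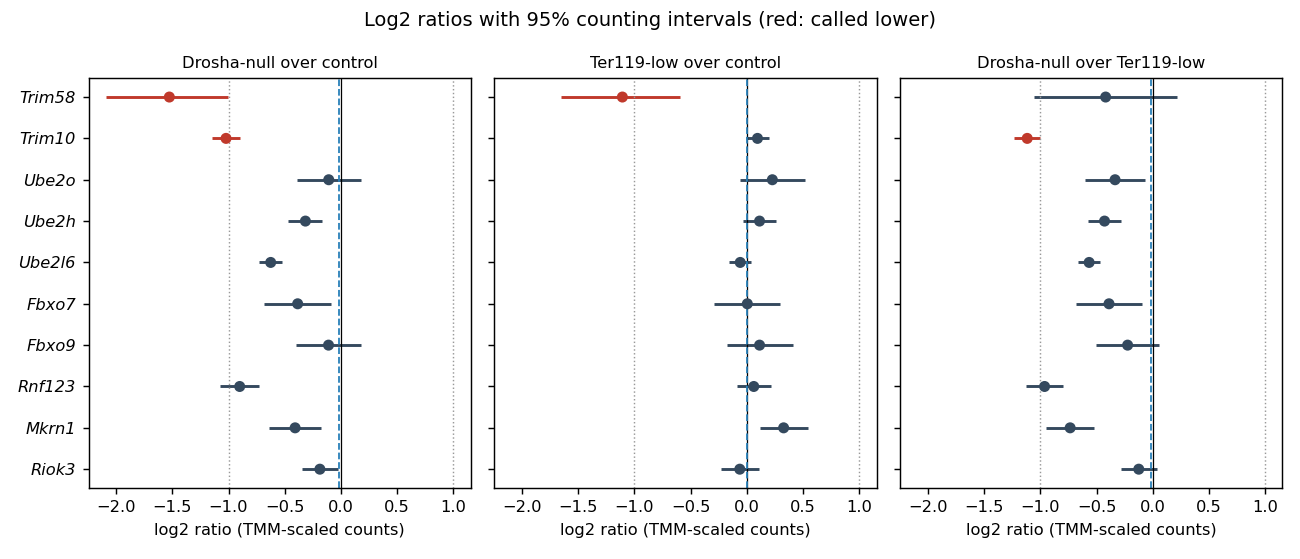
Log2 ratios of TMM-scaled counts (x axis) for the 10 genes (rows) in the 3 comparisons (panels), with 95% counting intervals as bars, called genes in red, the median of all genes as a dashed line and 2-fold differences as dotted lines. Trim58 and Trim10 are called lower in the Drosha-null library against the control, Trim58 alone in the Ter119-low library against the control, and Trim10 alone in the Drosha-null library relative to the Ter119-low one.

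Trim58 is an E3 ligase that in cultured mouse erythroblasts was reported to degrade the dynein motor before the nucleus is expelled. It had 43 counts in the Drosha-null, 46 in the Ter119-low and 94 in the control library. Both cKO libraries were low and the control high. Against the control, the Drosha-null library had a log2 ratio of -1.53 (-2.09 to -1.0), or 65.3% lower, and 2.99% of all tested genes had a ratio at or below it. In the Ter119-low library it was -1.11 (-1.66 to -0.59), or 53.6% lower, with 3.28% of genes at or below. Both ratios share the 94 control counts. Between the 2 cKO libraries, Drosha-null over Ter119-low, the log2 ratio was -0.42 (-1.05 to 0.21), an interval that held 1. Trim58 was the one member called in both comparisons with the control, and it kept both calls under every scaling tried. The authors' deposited table put its log2 ratio against the control at -1.10 for the Drosha-null library and at -1.02 for the Ter119-low one. The FDRs in that table come from a test of 1 library against 1 and are not repeated here for any member.

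Trim10 was lowest in the Drosha-null library. It had 916 counts there, 1589 in the Ter119-low and 1403 in the control library. Against the control, its log2 ratio was -1.02 (-1.14 to -0.90) in the Drosha-null and 0.10 (-0.01 to 0.20) in the Ter119-low library. Against the Ter119-low library the Drosha-null ratio was -1.12 (-1.24 to -1.0). The first and the last of these sit at the 2-fold line. The call against the control was lost with DESeq2 size factors (-1.0), with upper-quartile scaling (-0.99), after correction for gene length (-0.95), without ribosomal RNA and globins (-0.84) and with total counts or FPKM (-0.59), while the direction held in each. The call against the Ter119-low library was lost with total counts (-0.78), with FPKM (-0.78) and without ribosomal RNA and globins (-0.97). The authors' deposited table put the log2 ratio of Trim10 against the control at -0.59 for the Drosha-null library and at 0.19 for the Ter119-low one.

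Rnf123 (chr9:108051534-108083346, minus strand, GRCm38, 39 exons) is the RING subunit KPC1 of a ligase reported to degrade the cell-cycle inhibitor p27. It had 478 counts in the Drosha-null, 745 in the Ter119-low and 673 in the control library, with the Drosha-null library below both others. Its log2 ratio was -0.90 (-1.07 to -0.73) in the Drosha-null library against the control, 0.06 (-0.09 to 0.21) in the Ter119-low library against the control, and -0.96 (-1.13 to -0.80) between the 2 cKO libraries. It thus fell short of 2-fold in all 3. Long genes were on the whole higher in the Drosha-null library, with a median log2 ratio of 0.29 in the longest of 10 length classes and -0.59 in the shortest. Less the median of its length class, Rnf123 came to -1.06 in the Drosha-null library against the control and -1.08 against the Ter119-low library, and both were then called lower. Exons of Gmppb, Mst1 and Gm20529 overlap Rnf123 on the opposite strand, and whether counting used the strand is not given in the sources used here. Gmppb and Mst1 had 36 to 42 and 60 to 61 counts in the 3 libraries, far fewer than Rnf123. Exons of A230060F14Rik and Gm10244 likewise overlap Fbxo7 and Mkrn1 on the opposite strand. A230060F14Rik, Gm10244 and Gm20529 are not listed under these symbols among the genes of the series, so their counts are unknown.

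**Figure D3:**
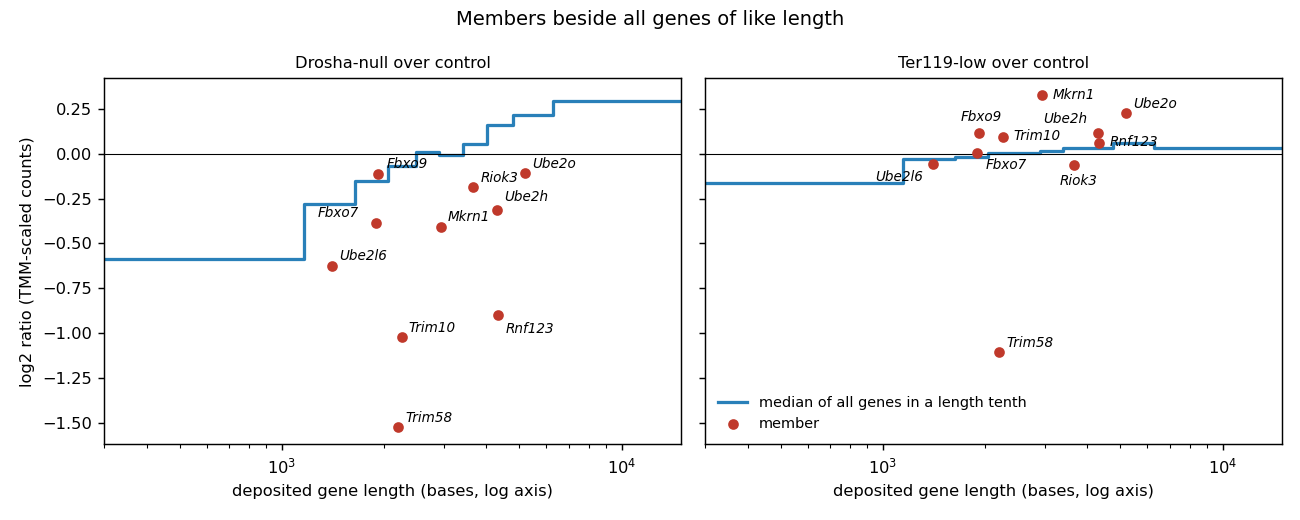
Log2 ratio of TMM-scaled counts (y axis) against deposited gene length in bases (log axis) for the 10 genes (red points), with the median of all genes in each of 10 length classes as a blue line, for each cKO library over the control. In the Drosha-null panel the line climbs from -0.59 to 0.29 and Trim58, Trim10 and Rnf123 lie farthest below it, while in the Ter119-low panel Trim58 alone lies far from the line.

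None of the 3 E2 enzymes was called in any comparison. Ube2l6 had 1470 counts in the Drosha-null, 1740 in the Ter119-low and 1709 in the control library, and its log2 ratio against the control was -0.62 (-0.73 to -0.52) in the Drosha-null and -0.06 (-0.16 to 0.04) in the Ter119-low library. Its length class, among the shortest genes, had a median of -0.28, which left -0.34. Ube2h, the E2 that in erythroid cells works with the CTLH ligase, had 746 counts in the Drosha-null, 803 in the Ter119-low and 700 in the control library. Its log2 ratio was -0.32 (-0.47 to -0.16) in the Drosha-null and 0.11 (-0.03 to 0.26) in the Ter119-low library. Ube2o, a combined E2 and E3 that in mouse reticulocytes removes ribosomal proteins, had 229, 231 and 186 counts, and its log2 ratio against the control was -0.11 (-0.39 to 0.18) in the Drosha-null and 0.23 (-0.06 to 0.51) in the Ter119-low library. With TMM both intervals held 1, and with total counts the Drosha-null ratio of Ube2o turned to 0.33.

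Both F-box genes stayed within 2-fold. Fbxo7, an SCF receptor whose loss makes mice anemic, had 191 counts in the Drosha-null, 200 in the Ter119-low and 188 in the control library. Its log2 ratio was -0.38 (-0.68 to -0.09) in the Drosha-null and 0.00 (-0.29 to 0.30) in the Ter119-low library. Fbxo9, an SCF receptor reported to target Telo2 and Tti1 in human cells, had 225, 210 and 183 counts, with log2 ratios of -0.11 (-0.40 to 0.18) and 0.11 (-0.18 to 0.41). With TMM its interval held 1 in both. Its direction in the Drosha-null library turned with the scaling, to 0.32 with total counts.

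Mkrn1, a RING ligase reported to target p53 and FADD, was the one member whose interval lay above 1 in the Ter119-low library. It had 317 counts in the Drosha-null, 422 in the Ter119-low and 317 in the control library, the same number in the first and the last. The log2 ratio was -0.41 (-0.64 to -0.18) in the Drosha-null library against the control, 0.33 (0.11 to 0.54) in the Ter119-low library against the control and -0.74 (-0.95 to -0.52) between the 2 cKO libraries. The equal counts of Mkrn1 become a lower scaled level in the Drosha-null library through the scaling factors, 1.19 in that library and 0.885 in the control.

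Riok3, a kinase reported to be needed for chromatin condensation and nuclear expulsion in cultured mouse fetal erythroblasts, had 684 counts in the Drosha-null, 596 in the Ter119-low and 587 in the control library. It had the most counts in the Drosha-null library. Its log2 ratio against the control was -0.19 (-0.35 to -0.03) in the Drosha-null and -0.06 (-0.23 to 0.10) in the Ter119-low library. Its direction turned with the scaling, and in the authors' deposited table its log2 ratio was 0.25 in the Drosha-null library. Its deposited counts were fractional (683.91, 596.02 and 586.97) while those of the other members were whole.

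**Figure D4:**
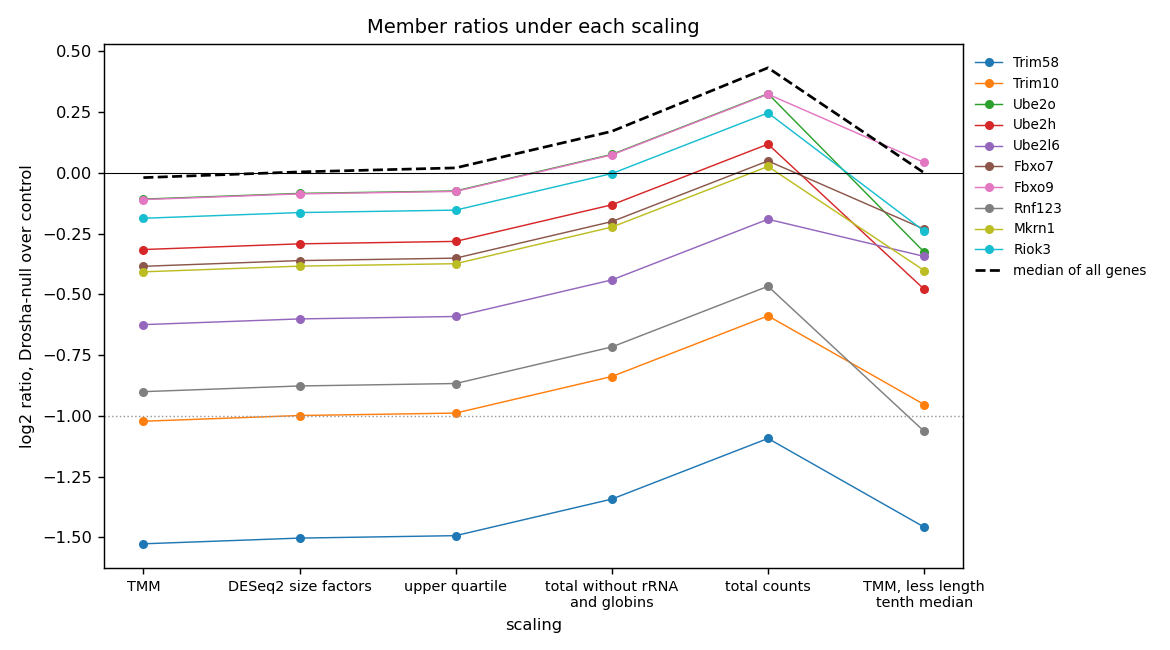
Log2 ratio of the Drosha-null library over the control (y axis) for each of the 10 genes (coloured lines). The median of all genes is dashed. The x axis gives the library scalings and, last, TMM with correction for gene length. Trim58, Trim10, Rnf123 and Ube2l6 stay below 0 throughout, and Trim58 alone stays below -1.

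In the Ter119-low library the 10 genes lay close to the control. Trim58 was called lower, 1 of 10, beside 2.76% of 10591 genes tested, and 0 were called higher, beside 2.9%. The median log2 ratio was 0.08, against 0.00 over all genes, and 3 of 10 were below 0, beside 49.9% of all genes. The interval lay below a ratio of 1 for Trim58 alone, beside 14.2% of all genes, and above 1 for Mkrn1 alone, beside 13.5%. Between the cKO libraries, Trim10 was called lower in the Drosha-null library, 1 of 10, beside 5.94% of 10795 genes, and 0 were called higher, beside 10.8%. There all 10 log2 ratios were below 0, beside 51.2% of all genes, and 7 intervals lay below a ratio of 1, beside 29.4%, and 0 above, beside 27.4%. Scaled by total counts, 7 remained below 0. The comparisons share libraries in pairs and are not independent.

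Ratios between members within a library do not depend on the scaling. These 3 pairs were chosen after their values were seen. Trim58 had 0.188 counts per Ube2o count in the Drosha-null, 0.199 in the Ter119-low and 0.505 in the control library, a log2 change against the control of -1.43 (-2.06 to -0.81) in the Drosha-null and -1.34 (-1.96 to -0.74) in the Ter119-low library. Trim10 had 0.623 counts per Ube2l6 count in the Drosha-null, 0.913 in the Ter119-low and 0.821 in the control library, a change of -0.40 (-0.56 to -0.24) in the Drosha-null and 0.15 (0.01 to 0.30) in the Ter119-low library. Rnf123 had 0.699 counts per Riok3 count in the Drosha-null, 1.25 in the Ter119-low and 1.15 in the control library, a change of -0.71 (-0.95 to -0.48) in the Drosha-null and 0.12 (-0.10 to 0.35) in the Ter119-low library. Since each pair sets a member of low ratio against one of higher ratio, these changes are a description. As shares of the summed counts of the 10 genes, Trim10 took 17.3%, 24.1% and 23.2% and Trim58 0.811%, 0.699% and 1.56% in the Drosha-null, Ter119-low and control library.

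Of 16 reported substrates and partners of the members, 1 (6.25%) was called higher and 1 (6.25%) lower in the Drosha-null library against the control. Their median log2 ratio was 0.17, and 12.4% of all genes were called higher and 7.79% lower. In the Ter119-low library 0 were called, beside 2.9% of all genes called higher and 2.76% lower. In the Drosha-null library 2 of the 16 were thus called. The one called lower was Ubac1, the KPC2 subunit that pairs with Rnf123, with 292 counts in the Drosha-null, 570 in the Ter119-low and 566 in the control library and a log2 ratio of -1.36 (-1.57 to -1.16) in the Drosha-null library. Scaled by total counts it was at -0.93 and no longer called. The one called higher was Cdkn1b, which encodes the Rnf123 target p27, with 102, 49 and 38 counts. Its log2 ratio of 1.01 (0.47 to 1.59) sits at the 2-fold line. All these values are of RNA. Protein amounts were not measured, so the values do not show what the ligases do to their targets. Dync1h1, the heavy chain of the dynein motor on which Trim58 acts, had 3446, 2158 and 2065 counts and a log2 ratio of 0.33 (0.25 to 0.41) in the Drosha-null library. Trp53, which encodes the Mkrn1 target p53, had 1631, 1582 and 1591 counts and a log2 ratio of -0.37 (-0.47 to -0.27). Cdk6, a partner of Fbxo7, had 26, 5 and 13 counts and was called higher in the Drosha-null library relative to the Ter119-low one (1.95, interval 0.65 to 3.79).

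In the ISG15 system, of 4 genes 2 were measured. Uba7, the E1 that charges ISG15 before Ube2l6 takes it, had 315 counts in the Drosha-null, 577 in the Ter119-low and 540 in the control library, and was called lower in the Drosha-null library (-1.18, interval -1.39 to -0.98). That call was lost with total counts, where Uba7 was at -0.75, and with total counts less ribosomal RNA and globins. Herc6, reported as the ISG15 ligase of mouse, had 17 counts in the Drosha-null library and 0 in each of the others, at least 4.27-fold higher than in the control against a floor of 3 counts per library.

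In the CTLH complex, which works with Ube2h, 1 of 11 genes was called lower in the Drosha-null library and 0 higher (median -0.30). That gene was Gid4, a substrate receptor, with 491 counts in the Drosha-null, 691 in the Ter119-low and 782 in the control library (-1.08, interval -1.24 to -0.91). Its call was lost with total counts (-0.64) and with total counts less ribosomal RNA and globins (-0.89). Wdr26, a subunit of the complex and the most abundant of the list, had 3914, 4489 and 3965 counts (-0.43), and Ranbp9 had 516, 273 and 224 counts (0.79, interval 0.57 to 1.03), which total counts took to 1.23 and a call. The 9.09% called lower in this list compare with 7.79% of all genes, of which 12.4% were called higher. In the Ter119-low library 0 of 11 were called against the control, beside 2.9% of all genes called higher and 2.76% lower. Gid8 was the highest there at 0.75 (0.36 to 1.16). Among the 10 SCF core and NEDD8 genes 0 were called in either direction in any comparison with TMM, with Nedd8 lowest at -0.91 (-1.13 to -0.70) and Cand2 highest at 0.61 (0.29 to 0.95) in the Drosha-null library. With total counts Cand2, at 1.05, was called higher there.

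Upstream, 0 of 6 ubiquitin and E1 genes were called in either cKO library (median 0.01 in the Drosha-null library). In the Ter119-low library 2.9% of all genes were called higher and 2.76% lower. Uba1, the main E1, had a log2 ratio of -0.01 (-0.07 to 0.04) and Uba6, a second E1, one of 0.81 (0.62 to 0.99), which became 1.24 and a call with total counts. Of 29 other E2 genes measured, 1 (3.45%) was called higher and 1 (3.45%) lower in the Drosha-null library (median -0.24). Over all genes 12.4% were called higher and 7.79% lower. The lower E2 was Ube2f, an E2 for NEDD8, with 38 counts in the Drosha-null, 102 in the Ter119-low and 126 in the control library (-2.12, interval -2.70 to -1.60). The higher was Ube2w at 1.06. Of 40 deubiquitinases 3 (7.5%) were called higher and 0 lower (median -0.04). They were Usp28 at 1.35 (0.87 to 1.88), Otud6b at 1.05 and Usp2 at 2.63 with 20, 4 and 2 counts. Ube2w, Otud6b and Usp2, like Rac2 and all genes of the wider families given below without an interval, were chosen after their values were seen.

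With TMM, calls in the wider families went in both directions. Over all genes 12.4% were called higher and 7.79% lower in the Drosha-null library against the control. Of 30 other TRIM genes measured, 4 (13.3%) were called higher and 2 (6.67%) lower there (median 0.04). Trim44 was at 1.29 (1.14 to 1.45) and Trim39 at -1.15 (-1.57 to -0.75). Of 47 other F-box genes, 5 (10.6%) were called higher and 3 (6.38%) lower (median 0.12), with Fbxo11 at 1.21 (0.97 to 1.47). Of 56 other RNF genes, 4 (7.14%) were called higher and 5 (8.93%) lower (median -0.15). Rnf103 was at 2.00 (1.54 to 2.51) and Rnf126 at -1.66 (-2.03 to -1.31). Trim6 (4.07), Trim65 (2.19) and Trim35 (1.01, interval 0.65 to 1.40) were the other TRIM genes called higher, and Trim45 (-1.76) the other called lower. The other F-box genes called higher were Fbxl4 (2.16), Fbxw17 (2.03), Fbxo36 (1.95) and Fbxo10 (1.37), and those called lower were Fbxo2 (-2.90), Fbxo44 (-1.10) and Fbxw4 (-1.04). The other RNF genes called higher were Rnf130 (2.34), Rnf128 (1.75) and Rnf141 (1.64), and those called lower were Rnf208 (-2.10), Rnf25 (-1.89), Rnf121 (-1.18) and Rnf7 (-1.06). In the Ter119-low library against the control these 3 families held 1, 1 and 3 calls in all, with Trim3 (-1.11), Fbxw9 (-1.67) and Rnf13 (-1.31, interval -1.87 to -0.79) lower and Rnf157 (2.24) and Rnf130 (1.21) higher. Several of these genes had fewer than 20 counts in their lower library. In the Ter119-low library against the control, 2.9% of all genes were called higher and 2.76% lower. With total counts the calls against the control in the Drosha-null library became 6 higher and 0 lower among TRIM, 12 higher and 1 lower among F-box, and 9 higher and 3 lower among RNF genes. Calls over all genes moved the same way, to 2502 higher and 294 lower, from 1333 and 839 with TMM. Of the makorin and RIO relatives of Mkrn1 and Riok3, 3 were measured and 0 called against the control, and Mkrn2, at 104 counts in the Drosha-null, 168 in the Ter119-low and 140 in the control library, was called lower in the Drosha-null library relative to the Ter119-low one (-1.01, interval -1.38 to -0.65), a call at the 2-fold line that was lost under each other scaling (-0.67 with total counts).

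Of 12 late erythroid genes 7 (58.3%) were called lower and 0 higher in the Drosha-null library against the control (median -1.14). Over all genes 7.79% were called lower and 12.4% higher. With total counts, when 294 of all genes were called lower against 839 with TMM, 3 of the 12 were (median -0.71). Of the 12 late erythroid genes, 11 stayed below 0. Their summed level was 4860 CPM in the Drosha-null, 11580 in the Ter119-low and 12292 in the control library. Slc4a1, the red-cell anion exchanger, was at -1.21 (-1.23 to -1.18) and Bpgm, which makes bisphosphoglycerate, at -2.37 (-2.46 to -2.27), while Bnip3l, a mitophagy receptor, was at -0.00 (-0.12 to 0.11). In the Ter119-low library 0 of the 12 were called and their median was -0.09. Only 2.9% of all genes were called higher there and 2.76% lower. The part of these differences in the values of the 10 genes was not tested. Of 12 genes tied to nuclear condensation or enucleation, the step in which Trim58 and Riok3 were reported, 1 (8.33%) was called higher and 2 (16.7%) lower in the Drosha-null library (median -0.32). The same shares of all genes, 12.4% higher and 7.79% lower, apply. Rac1, a GTPase of the contractile ring, was higher at 1.74 (1.64 to 1.85). E2f2, a cell-cycle factor, was lower at -1.03 (-1.17 to -0.89), a call lost with upper quartile (-0.99), total counts (-0.59) and total counts less ribosomal RNA and globins (-0.84). Also lower was Rac2, a second Rac GTPase, at -1.74 with 18 counts in the Drosha-null, 37 in the Ter119-low and 46 in the control library. Scaled by total counts, the medians of the other E2, CTLH, SCF, RNF, deubiquitinase and enucleation lists turned positive.

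**Figure D5:**
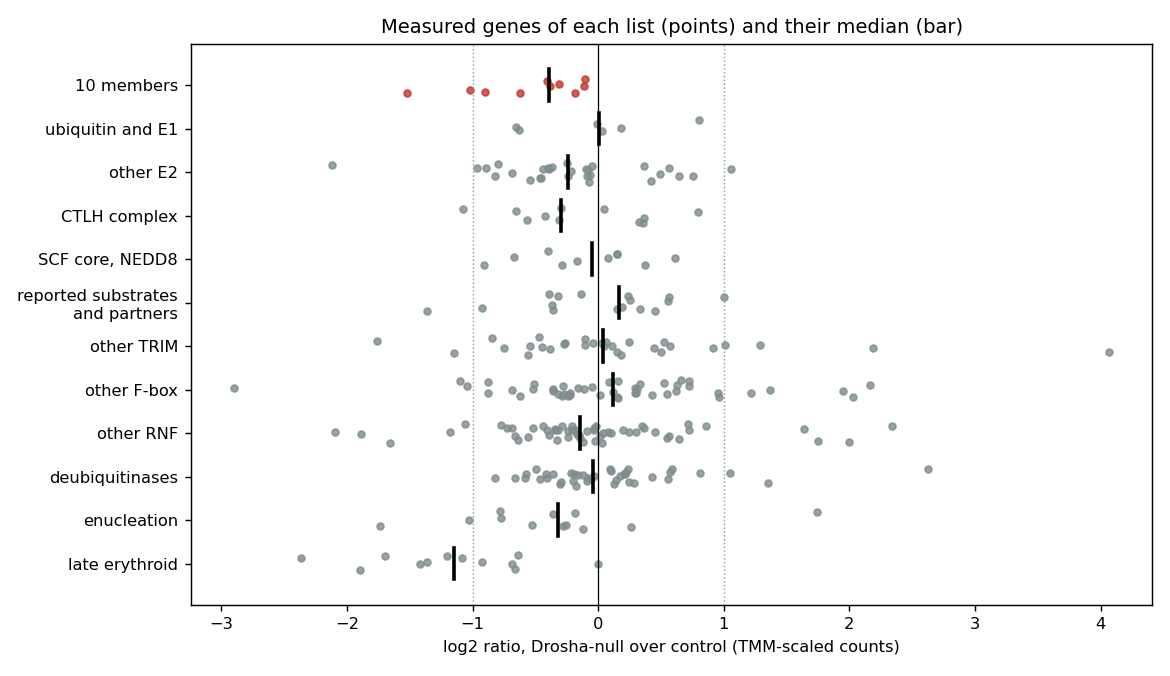
Log2 ratio of the Drosha-null library over the control (x axis, TMM-scaled counts) for each measured gene (points) of the 10 members and of each list with 6 or more measured genes (rows), with the median as a bar and 2-fold differences as dotted lines. With this scaling all 10 members lie below 0 with a median of -0.40, and the late erythroid genes lie lowest with a median of -1.14.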

How the data were processed

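RNA from 3 sorted erythroblast pools, 1 library a group, was analysed from 2 deposited tables, each setting a cKO library against the control. Per the file headers, they give expected counts, FPKM, log2 ratios, p-values and FDR, all computed by the authors. Their aligner, counter, strandedness, annotation and build are not given here. Expected counts were rounded to whole numbers, the tables joined by gene ID (control counts differed for 0 genes), and 0 counts used where a table does not list a gene. Libraries were scaled by TMM (edgeR 4.0.16, R 4.3.3). Log2 ratios had 0.5 counts added and exact 95% Clopper-Pearson intervals, for genes that reached 1 CPM in either library. FPKM intervals are exact Poisson intervals. Intervals and floors cover counting error only, and reads are not independent molecules. Called means 2-fold or more with an interval excluding 1. FPKM served for levels and an alternative. The expected counts had no replicates, so no condition was tested. DESeq2 1.42.0 gave size factors only. The procedure was run on simulated counts with counting error only. Those hold no spread between libraries, so the check says nothing about that spread.

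The members and lists were chosen with earlier results of these data known. Genes named are all members, and of each list the 2 most abundant, the extremes by interval bound at 10 or more CPM, and called genes of the ISG15, CTLH and substrate lists. Some of these are not given in the text. Locations and 3' UTRs come from GENCODE M21 (GRCm38).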

Additional observations from a re-analysis of the deposited data

How the results depend on the processing

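No paired analysis was possible because each group has 1 library, and for the same reason no replicate could be left out. Of 87 recomputed counts and medians over the 10 genes, 69 stayed within range and 18 moved; of 210 values of single members 48 moved, and none reversed a call. Against the control, 2 members were called lower in the Drosha-null library. This became 1 with total counts, DESeq2 size factors, upper quartile, total counts without ribosomal RNA and globins, or deposited FPKM. In that order, the 839 of all genes called lower with TMM became 294, 796, 778, 540 and 323. At a size rule of 1.5-fold 4 members were called lower and at 3-fold 0. The shares of all genes at these 2 size rules are not given here, so these counts cannot be set beside them. The median of the 10 genes became 0.0377 with total counts and 0.0396 with FPKM. In the Ter119-low library the 1 member called became 0 at 3-fold. In the Drosha-null library relative to the Ter119-low one, 1 member was called lower. This became 0 with total counts, without ribosomal RNA and globins, with FPKM or at 3-fold, 2 after length correction and 3 at 1.5-fold. The 641 of all genes called lower there became 304 with total counts, 446 without ribosomal RNA and globins and 335 with FPKM. After length correction they became 546. The median of the 10 genes moved to -0.0869 with total counts and -0.103 with FPKM. Each library scaling shifts all ratios of a comparison by one amount, which moves genes near the 2-fold line across it. The length correction instead shifts each gene by the median of its own length class. Of 312 recomputed list values, 45 moved. Trim58 rests on 43 to 94 counts, so its intervals are the widest of the 10 genes.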
